A study of Mus musculus with 23 samples.

Results

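The tumours described here are the 6 primary melanomas of the series that held little keratinocyte RNA, 3 from mice with 1 mutated copy of both Nme1 and Nme2 and 3 from wild-type mice, out of 14 primaries and 23 libraries in all. The series profiled ultraviolet-induced primary and metastatic mouse melanomas by sequencing of total RNA. The genotype labels read Nme1+/- / Nme2+/- for the tumours titled HPN and Nme1wt / Nme2wt for those titled HP. The labels do not spell out HP; in published work on this mouse model it stands for an Hgf transgene with loss of the p16 product of Cdkn2a, which both groups would then carry. The labels name neither strain background nor age. They also do not say whether each primary came from its own animal, so a p-value here reflects the spread among libraries, which may be technical in part. By Y-linked genes both sexes occurred within each genotype, so neither group came from 1 animal. The libraries are HPN 2, 5 and 7 and HP 5, 7 and 9. They were chosen by a measured value: a mean below 2 over the log2 CPM of 17 keratinocyte genes such as Krt14 and Krt5, where CPM is a gene's count scaled to a fixed total of counts per library. That mean was 0.74, -0.74 and -0.41 in HP 5, 7 and 9, and 1.76, -1.83 and 1.24 in HPN 2, 5 and 7. The nearest primary on the other side of the threshold, HPN 6, had 5.44, and the 8 keratinocyte-rich primaries (4 of each genotype) ran from 5.44 to 9.70. Keratinocyte genes thus define the set and carry no test here.

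Nme1 and Nme2 encode nucleoside diphosphate kinases, which pass the terminal phosphate of ATP to other nucleoside diphosphates and so help balance the nucleotide pools. Nme1 (NM23) was the first gene described as a metastasis suppressor, in melanoma cells. Melanomas arise from pigment cells, and their cells can move between a differentiated state, with melanin genes on, and a dedifferentiated, neural crest-like state marked by genes such as Ngfr and Axl. Bulk tumour RNA also contains fibroblasts, vessels, immune cells and skin, and in such samples fewer cells of a type and less RNA per cell cannot be told apart.

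Reads counted in genes numbered 28854232 to 84902927 in the HP libraries and 30247350 to 58071192 in the HPN libraries. HP 7, HP 9 and HPN 7 had reads set aside for low alignment quality, at most 0.00219% of entries. The defining pigment genes were at high levels in all 6 libraries, with Pmel between 4787 and 14996 CPM. Y-linked genes were present in HP 5, HPN 2 and HPN 7 and near 0 in HP 7, HP 9 and HPN 5, so the sexes were split 1 to 2 and 2 to 1 between the genotypes. HPN 7 and HPN 5 lay at opposite ends of the first principal component of the 500 most variable genes (40.3% of the variance), with the HP libraries between them. On the second component (21.4%) the HP libraries scored -32.4 to -7.46, lowest in HP 9, and the HPN libraries 6.61 to 32.8, highest in HPN 7. Correlations of log2 CPM between libraries of 1 genotype (0.930 to 0.965) overlapped those between genotypes (0.931 to 0.961).

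The targeted genes were read first. Nme1 (ENSMUSG00000037601) stood at 28.0, 22.4 and 17.3 CPM in HP 5, 7 and 9 and at 10.9, 10.5 and 11.97 CPM in HPN 2, 5 and 7. Every HPN library lay below every HP library, and the HP mean was 2.02 times the HPN mean. The log2 difference, HPN minus HP, was -1.02 (SE 0.24, n = 3 and 3); its edgeR quasi-likelihood p of 0.00264 became 0.681 after Benjamini-Hochberg adjustment over all genes, and DESeq2, run as an alternative, gave an adjusted p of 0.0340. An exact two-sided permutation test gave p = 0.1, the smallest value that the 20 arrangements of 3 against 3 allow. In keratinocyte-rich primaries Nme1 did not separate the genotypes (log2 difference -0.25, SE 0.30, edgeR unadjusted p = 0.417). Scaled over all 23 libraries, it had 7.85 to 13.5 CPM in HP and 5.20 to 12.8 in HPN there. On that scale the keratinocyte-poor libraries had 18.8 to 29.3 CPM in HP and 11.3 to 13.2 in HPN. Nme2 (ENSMUSG00000020857), the adjacent gene, had 0.823, 0.350 and 0.398 CPM in the HP libraries and 0.260, 0.380 and 0.185 in the HPN libraries. Its log2 difference was -0.89 (SE 0.60) with overlapping libraries (exact permutation p = 0.2). These values rested on 8 to 30 reads per library. The measured levels of both genes carry a limit: the annotation places the predicted gene Gm20390, which had 0 counts, across both, and reads that fall in more than 1 gene can go uncounted. How many reads of Nme1 or Nme2 this removed is unknown.

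None of the other nucleoside diphosphate kinase genes tested lay lower in every HPN library, as Nme1 did. Nme5 had 0.362, 0.373 and 0.290 CPM in HP and 0.488, 0.579 and 0.393 in HPN, higher in each HPN library but at very low levels (log2 difference 0.51, edgeR unadjusted p = 0.333). Nme4, Nme6 and Nme7 overlapped between the genotypes, with log2 differences of -0.46, -0.10 and 0.05. Nme3, Nme8 and Nme9 did not pass the filter on low counts. Among 20 protein-coding neighbours, 10 on each side of Nme1 and Nme2, 14 were tested. Of these, 6 had a positive and 8 a negative log2 difference, and the median of the 14 was -0.05. For those 14, 1 lay higher and 1 lower in every HPN library. Of the same 14, 4 had an edgeR unadjusted p under 0.05 and 0 passed adjustment. The 4, named after their values were seen, were Mbtd1 (log2 difference -0.55), Tob1 (0.64), Hlf (1.24) and Cacna1g (2.63), each with overlapping libraries.

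Across all 15971 genes tested, 1 passed an adjusted p of 0.05 (0.00626%), and it was lower in HPN. At an unadjusted p under 0.05 there were 1170 genes (7.33%), 666 higher in HPN (4.17%) and 504 lower (3.16%). Every HPN library lay above every HP library for 1123 genes (7.03%) and below for 1045 (6.54%), 13.6% together. The median log2 difference over all genes was 0.01. The biological coefficient of variation in the fit was 0.424. DESeq2 called 146 genes (0.914%), 78 higher and 68 lower. All 146 had an edgeR unadjusted p under 0.05 with the same sign. The share of members called, or not overlapping, in each group of genes that follows is to be read against these percentages.

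Tfpi (ENSMUSG00000027082) was lower in the keratinocyte-poor Nme-mutant tumours. It encodes tissue factor pathway inhibitor, which blocks the tissue factor and factor Xa step that starts blood clotting. Its level was 35.8, 34.7 and 37.1 CPM in HP 5, 7 and 9 and 4.29, 2.73 and 3.86 CPM in HPN 2, 5 and 7. The HP libraries were nearly equal (mean 35.9 ± 1.22, SD, n = 3), and their mean was 9.90 times that of the HPN libraries (3.63 ± 0.81, SD, n = 3). The counts behind these values were 1088, 2972 and 2048 reads in HP and 132, 151 and 167 reads in HPN. The log2 difference was -3.31 (SE 0.24, edgeR adjusted p = 0.0141). The call was lost when any 1 of the 6 libraries was left out (adjusted p 0.0531 to 0.208), although the log2 difference then stayed between -3.44 and -3.13. It was also lost in the fit of all 14 primaries (adjusted p = 0.452), with the low alignment quality entry as a term (0.110) and with sex as a term (0.0679). F3, which encodes tissue factor itself, had 3.49, 3.68 and 4.27 CPM in HP and 10.9, 5.43 and 7.86 in HPN, higher in every HPN library without passing the test (log2 difference 1.07, SE 0.36, adjusted p = 0.681).

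In keratinocyte-rich primaries Tfpi did not show this separation. Scaled over all 23 libraries, its level was 9.77, 59.7, 12 and 15.5 CPM in HP 1, 3, 4 and 6, and 5.85, 21.8, 26.0 and 13.3 CPM in HPN 1, 3, 4 and 6. The log2 difference there was -0.53 (SE 0.65, edgeR unadjusted p = 0.438). Node and lung metastases, all from Nme-mutant mice, had Tfpi at 17.8 to 49.7 and at 37.4 and 38.6 CPM, above the 3 keratinocyte-poor HPN primaries, which reached at most 4.55 CPM on that scale. The difference of the genotype effect between the keratinocyte-poor and keratinocyte-rich primaries was -2.75 (SE 0.85) on the log2 scale and did not pass adjustment (edgeR adjusted p = 0.341). The 250 bases before the first of 2 Tfpi transcription starts in RefSeq (GRCm38.p6) are printed because this is the gene that passed the test.
Tfpi, first start (chr2:84476760-84477009, minus strand): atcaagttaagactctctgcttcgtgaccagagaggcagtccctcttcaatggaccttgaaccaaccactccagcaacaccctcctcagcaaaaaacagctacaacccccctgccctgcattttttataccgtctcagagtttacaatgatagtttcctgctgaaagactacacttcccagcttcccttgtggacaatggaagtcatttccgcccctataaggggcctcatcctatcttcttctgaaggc
Neither start's window holds a CATGTG or CACGTG motif on either strand, the E-box letters searched below, and gene counts do not say which start was in use.

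**Figure D1:**
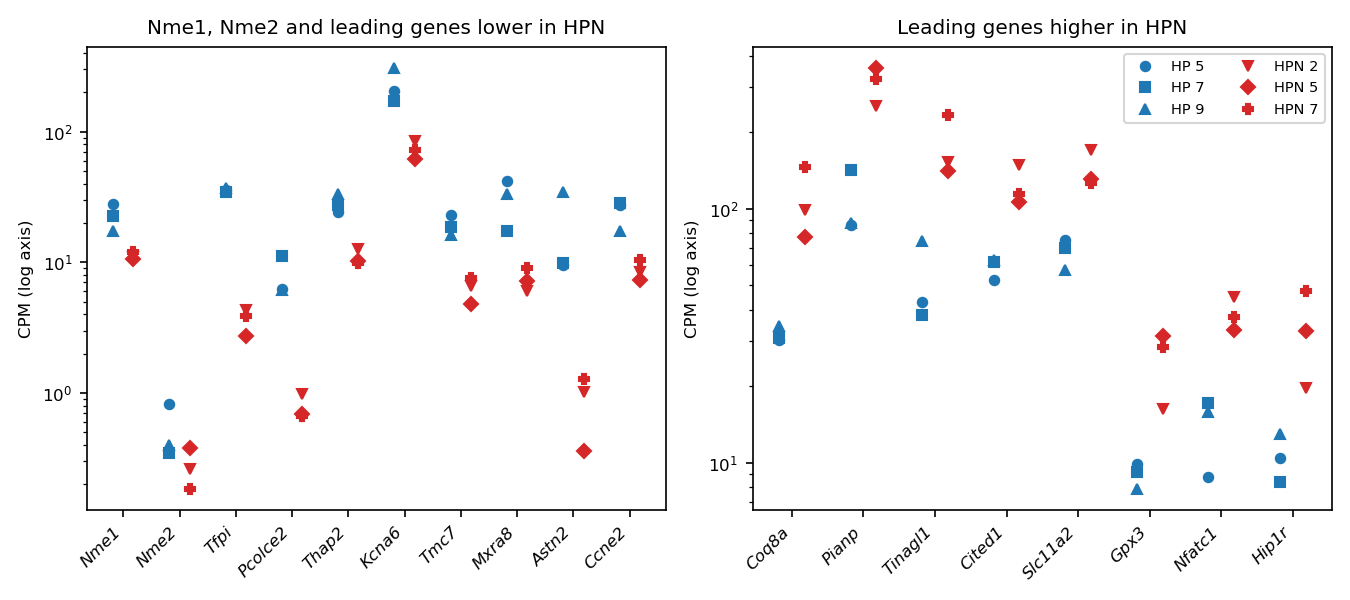
Level in CPM (log axis) of Nme1, Nme2 and the 8 leading lower genes (left) and the 8 leading higher genes (right) in each keratinocyte-poor primary; blue marks HP and red HPN, with 1 symbol per library. The 3 HP values of Tfpi coincide near 35.9 CPM, and apart from Nme2 each gene shown separates the genotypes without overlap, which the choice by smallest p favours.

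The genes with the next smallest p-values did not pass adjustment in edgeR (adjusted p 0.499 for Pcolce2 and 0.681 for the others) and are described by their levels. All 15 were among the DESeq2 calls. Pcolce2, a secreted enhancer of procollagen C-proteinase, stood at 6.22, 11.2 and 6.12 CPM in HP 5, 7 and 9 and at 0.975, 0.687 and 0.670 CPM in HPN 2, 5 and 7. Its log2 difference was -3.34 (SE 0.44), and in keratinocyte-rich primaries it was -2.56 (SE 1.07, unadjusted p = 0.0421). Of the 8 leading lower genes it was 1 of 3 that kept the negative sign there, with Tfpi and Mxra8, a matrix-associated membrane protein. Mxra8 had 42.0, 17.5 and 33.3 CPM in HP and 6.01, 7.13 and 8.99 in HPN.

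Other lower genes included a cell-cycle and a potassium channel gene. Ccne2, which encodes cyclin E2 of the step from G1 into S phase, had 27.2, 28.5 and 17.5 CPM in HP and 8.36, 7.35 and 10.5 CPM in HPN (log2 difference -1.48, SE 0.27). Kcna6, a voltage-gated potassium channel subunit, had 203, 170 and 306 CPM in HP and 84.6, 61.9 and 72.8 CPM in HPN (log2 difference -1.63, SE 0.27). In keratinocyte-rich primaries Kcna6 had the opposite sign (log2 difference 1.64, SE 0.45, unadjusted p = 0.0062). Astn2, Tmc7 and Thap2 were lower in every HPN library as well. Astn2 rested on 20 to 55 reads in HPN libraries, and its HP 9 level of 34.7 CPM stood far above the 9.52 and 9.81 CPM of the other HP tumours.

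Among the leading higher genes, Coq8a had the smallest p. Coq8a encodes an atypical kinase of the mitochondrial complex that makes coenzyme Q. Its level was 30.5, 30.9 and 34.5 CPM in HP 5, 7 and 9 and 98.4, 77.2 and 146 CPM in HPN 2, 5 and 7, so the HPN mean was 3.35 times the HP mean (log2 difference 1.75, SE 0.26). In keratinocyte-rich primaries the log2 difference was 0.72 (SE 0.33, unadjusted p = 0.0599). The rest of the coenzyme Q list did not move with it: of 13 tested members 6 were positive and 7 negative, with a median of -0.10 that was 0.13 without HP 5. Coq10b (22.5, 21.7 and 21.1 CPM in HP, 15.8, 13.6 and 17.5 in HPN) and Coq3 (19.5, 14.7 and 13.9 against 10.6, 10.7 and 13.8) lay lower in every HPN library.

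The other leading higher genes span membrane, redox and transcription functions. Pianp, a membrane ligand of paired immunoglobulin-like receptors, had 86.1, 142 and 87.7 CPM in HP and 253, 357 and 325 CPM in HPN (log2 difference 1.57, SE 0.27). Cited1, a transcriptional co-activator first described in pigmented melanoma cells, had 52.5, 61.8 and 62.5 CPM in HP and 148, 106 and 114 CPM in HPN (log2 difference 1.06, SE 0.20). Slc11a2, the divalent metal transporter that brings iron into cells, had 75.0, 69.7 and 57.1 CPM in HP and 170, 131 and 126 CPM in HPN. For these 3 genes the gap between the lowest HPN and the highest HP library was wider than the range within either group. Gpx3, a secreted glutathione peroxidase, had 9.85, 9.18 and 7.90 CPM in HP and 16.2, 31.6 and 28.4 in HPN. Nfatc1, a calcium-regulated transcription factor, had 8.76, 17.2 and 15.8 CPM in HP and 44.9, 33.3 and 37.5 in HPN. Tinagl1 and Hip1r completed the 8. In keratinocyte-rich primaries 6 of the 8 kept the positive sign, some by very little. The log2 differences of Slc11a2 (0.003, SE 0.21), Gpx3 (0.01, SE 0.52) and Pianp (0.14, SE 0.77) were each smaller than their SE. Tinagl1 (0.41, SE 0.40), Cited1 (1.42, SE 0.98) and Coq8a (0.72, SE 0.33) were further above 0. Nfatc1 (-0.73, SE 0.24) and Hip1r (-0.60, SE 0.36) had the negative sign.

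Pigment genes tended to be higher in the keratinocyte-poor Nme-mutant tumours. Of 18 genes of melanin synthesis and the melanosome, 14 had a positive log2 difference, 7 lay higher in every HPN library and 0 lay lower. None passed adjustment in edgeR; 6 had an unadjusted p under 0.05, all higher. The list's median was 0.48, beside 0.01 over all genes. The 7 were Oca2, Mlana, Gpr143, Trpm1, Pmel, Mlph and Gpnmb, of which Pmel, Mlph and Gpnmb were named after their values were seen. Oca2, the melanosomal ion transport protein lost in a form of albinism, had 558, 270 and 240 CPM in HP and 808, 993 and 924 in HPN (log2 difference 1.35, SE 0.36). Mlana, a melanosome maturation protein, had 226, 138 and 69.6 CPM in HP and 335, 448 and 330 in HPN (log2 difference 1.36, SE 0.41). Pmel, which forms the fibrils on which melanin is laid down, had 6864, 7676 and 4787 CPM in HP and 9667, 14996 and 13711 in HPN. HP 9 had the lowest value of all 6 libraries for Oca2, Mlana and Pmel. Without HP 9 the list's median was 0.22, and with both HP 9 and HPN 7 left out it was 0.29. In keratinocyte-rich primaries Oca2, Mlana, Gpr143 and Trpm1 had log2 differences of 0.28, 0.22, 0.14 and -0.02 (edgeR unadjusted p 0.614 to 0.975).

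The enzymes of melanin synthesis did not share this separation. Tyr, the rate-limiting enzyme, had 2382, 2673 and 2112 CPM in HP and 2171, 2109 and 1405 in HPN (log2 difference -0.33, SE 0.28). Tyrp1 had 11510, 12854 and 8339 CPM in HP and 7354, 12898 and 11311 in HPN (log2 difference -0.05, SE 0.35). Dct had 18373, 21632 and 12808 CPM in HP and 21707, 25523 and 16524 in HPN (log2 difference 0.27, SE 0.36). All 3 enzymes, also named after their values were seen, overlapped between the genotypes.

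The windows of 250 bases before the transcription start are shown for members that separated (Oca2, Trpm1, Mlph) beside members that did not (Tyr, Tyrp1). They are RefSeq sequences of GRCm38.p6, 5′ to 3′. Capitals mark CATGTG, read on either strand (CACATG on the other), and CACGTG, which reads the same on both; these are E-box letters that Mitf and related factors can bind.
Oca2 (chr7:56239509-56239758, plus strand): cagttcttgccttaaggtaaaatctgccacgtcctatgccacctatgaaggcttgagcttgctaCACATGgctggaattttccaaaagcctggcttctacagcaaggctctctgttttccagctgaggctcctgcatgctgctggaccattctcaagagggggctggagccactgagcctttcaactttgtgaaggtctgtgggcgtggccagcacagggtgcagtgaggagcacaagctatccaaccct
Trpm1, first start (chr7:64153585-64153834, plus strand): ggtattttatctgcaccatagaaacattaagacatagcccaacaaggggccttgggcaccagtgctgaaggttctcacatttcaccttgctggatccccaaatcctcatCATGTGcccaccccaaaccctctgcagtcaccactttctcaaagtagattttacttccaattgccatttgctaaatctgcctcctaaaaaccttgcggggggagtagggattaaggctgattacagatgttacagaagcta
Trpm1, second start (chr7:64185209-64185458, plus strand): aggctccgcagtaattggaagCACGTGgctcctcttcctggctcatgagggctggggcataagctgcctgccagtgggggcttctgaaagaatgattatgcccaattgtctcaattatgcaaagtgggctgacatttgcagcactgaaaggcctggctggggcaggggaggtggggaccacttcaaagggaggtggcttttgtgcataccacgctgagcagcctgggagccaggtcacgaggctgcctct
Mlph (chr1:90914850-90915099, plus strand): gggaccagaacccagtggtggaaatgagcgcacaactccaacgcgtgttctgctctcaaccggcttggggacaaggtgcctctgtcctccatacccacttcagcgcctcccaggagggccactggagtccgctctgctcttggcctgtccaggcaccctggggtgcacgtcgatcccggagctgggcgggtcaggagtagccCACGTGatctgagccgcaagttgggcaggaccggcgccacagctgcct
Tyr (chr7:87493513-87493762, minus strand): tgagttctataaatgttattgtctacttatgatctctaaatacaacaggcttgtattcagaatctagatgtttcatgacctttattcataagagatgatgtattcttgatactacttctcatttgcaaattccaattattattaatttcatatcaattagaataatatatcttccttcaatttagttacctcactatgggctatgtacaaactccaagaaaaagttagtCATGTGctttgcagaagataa
Tyrp1 (chr4:80833963-80834212, plus strand): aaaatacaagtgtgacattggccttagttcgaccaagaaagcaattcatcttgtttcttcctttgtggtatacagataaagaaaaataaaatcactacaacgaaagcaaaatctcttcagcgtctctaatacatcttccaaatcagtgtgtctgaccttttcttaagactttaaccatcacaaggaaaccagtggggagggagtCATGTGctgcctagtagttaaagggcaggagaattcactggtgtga
Of the 18 pigment genes 12 had a window in the RefSeq table, 14 windows in all. A motif was found in 11 of the 14 (78.6%) against 17.6% of all 32851 windows; CACGTG was in 6.02% and CATGTG in 12.3% of all, each counted whether or not the other was there. Both kinds of member held the letters: Oca2 and the first Trpm1 start had CATGTG, as Tyr and Tyrp1 did, while Mlph and the second Trpm1 start had CACGTG. A match is a description of the sequence and not of binding.

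Mitf, the transcription factor that drives pigment cell identity, was not higher with its pigment genes. It had 1273, 1457 and 626 CPM in HP and 999, 634 and 643 CPM in HPN, with overlapping libraries (log2 difference -0.56, SE 0.37). Tfeb, a related factor of lysosome genes, had 52.9, 46.4 and 37.9 CPM in HP and 77.8, 75.8 and 74.6 in HPN, higher in every HPN library (log2 difference 0.73, SE 0.19, unadjusted p = 0.0042). Sox9 had 16.6, 28.1 and 31.5 CPM in HP and 118, 140 and 26.0 in HPN, high in HPN 2 and HPN 5 only. Of 11 melanocyte transcription factors 6 were positive and 5 negative, with a median of 0.01 that was -0.10 without HP 5.

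Genes of the dedifferentiated state were mostly lower in the keratinocyte-poor Nme-mutant tumours. Of 16 listed genes 15 were tested, 12 with a negative and 3 with a positive log2 difference (-3.78 to 1.85). Of the 15, 3 lay lower in every HPN library and 0 lay higher. The members named here are those with the smallest p. The median was -1.29, none passed in edgeR, and 4 had an unadjusted p under 0.05, all lower. Ngfr, the low-affinity nerve growth factor receptor, had 247, 73.0 and 600 CPM in HP and 29.1, 10.9 and 37.3 CPM in HPN (log2 difference -3.57, SE 0.86). Gfra2, a co-receptor of the glial cell line-derived factor family, had 8.33, 2.15 and 15.97 CPM in HP and 1.56, 0.905 and 1.22 in HPN. Zeb2, a zinc-finger factor of the neural crest, had 826, 909 and 1200 CPM in HP and 539, 533 and 490 in HPN (log2 difference -0.91, SE 0.24). HP 9 was the highest library for all 3, and for Nes (77.8, 22.8 and 131 CPM in HP, 26.7, 8.90 and 24.3 in HPN). Summed over the list, HP 9 had 5038 CPM, HP 5 and 7 had 1878 and 1394, and the HPN libraries 935 to 1148. The median was -0.42 without HP 9 and 0.04 in a fit on the libraries numbered 5 and 7 alone.

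**Figure D2:**
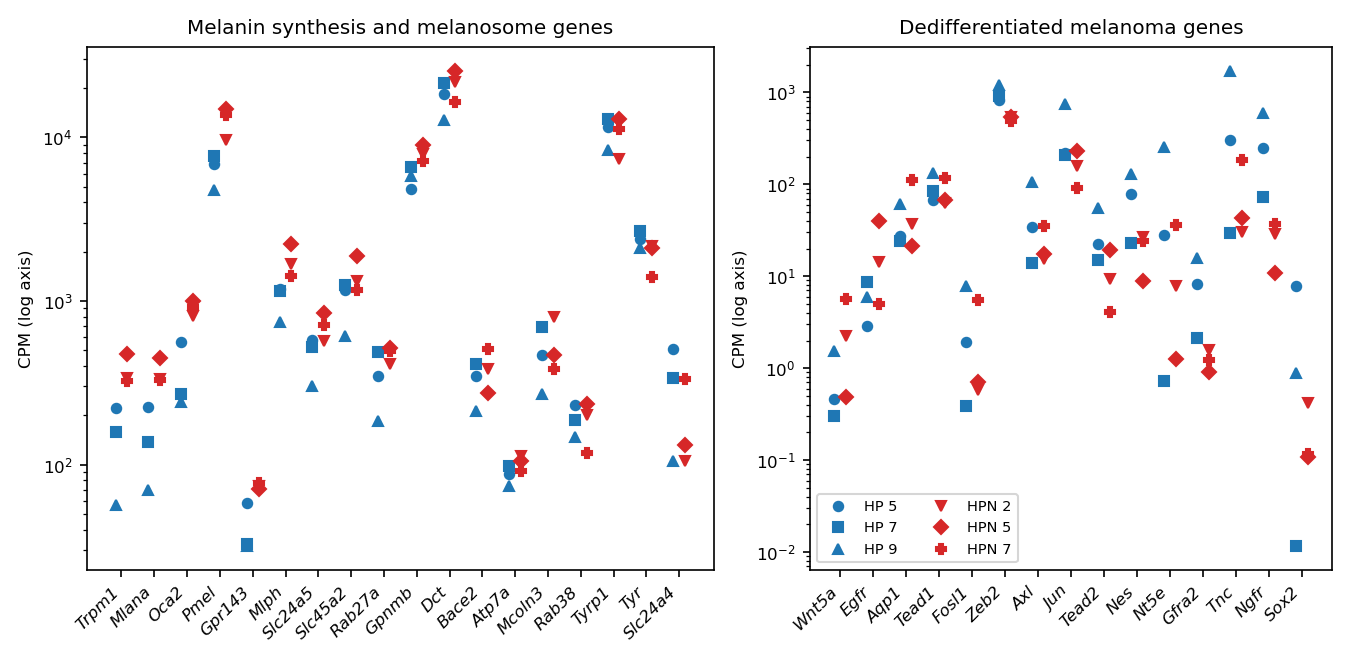
Level in CPM (log axis) of each tested melanin and melanosome gene (left) and dedifferentiated melanoma gene (right) in the 6 keratinocyte-poor primaries, ordered by log2 difference; blue marks HP and red HPN. HP 9 (blue triangle) is lowest for Pmel at 4787 CPM and highest for Ngfr at 600 CPM.

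Some genes that melanoma cells share with Schwann cells, the glia of peripheral nerves, were among the lower ones. Cdh19, a cadherin of neural crest and Schwann cell precursors, had 403, 391 and 475 CPM in HP and 290, 189 and 217 CPM in HPN (log2 difference -0.87, SE 0.24). Scn7a had 11.7, 4.27 and 22.5 CPM in HP and 4.19, 3.15 and 1.06 in HPN. Both lay lower in every HPN library. Of 12 tested Schwann cell genes 7 were positive, and the median was 0.08, or -0.12 without HPN 2. Fn1, which encodes the matrix protein fibronectin, had 2190, 3354 and 9090 CPM in HP and 1104, 772 and 1544 in HPN (log2 difference -2.10, SE 0.57). The list of epithelial-mesenchymal transition genes to which Fn1 belongs had 8 positive and 7 negative members. Itga2, an integrin subunit for collagen, had 10.6, 8.85 and 29.7 CPM in HP and 5.85, 3.04 and 4.67 in HPN. Of 17 integrin genes 8 were positive and 9 negative, and 2 lay higher and 1 lower in every HPN library. The integrin median of -0.53 was -0.04 without HP 9.

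Growth factor and early response genes were mixed. Kitl, the ligand of the Kit receptor of melanocytes, had 140, 154 and 103 CPM in HP and 42.3, 34.0 and 75.9 CPM in HPN (log2 difference -1.39, SE 0.33, edgeR adjusted p = 0.681). Erbb3, a neuregulin receptor, had 297, 462 and 600 CPM in HP and 289, 270 and 291 in HPN. Of 14 tested receptors and ligands 7 were positive and 7 negative. Hgf had 216, 229 and 295 CPM in HP and 281, 232 and 294 in HPN, and its receptor gene Met had 1408, 1580 and 1176 against 1433, 1802 and 1920; both overlapped. Cdkn2a, counted over the whole gene, had 44.6, 44.5 and 45.2 CPM in HP and 48.1, 61.1 and 69.7 in HPN (log2 difference 0.41, SE 0.19), and these counts do not tell its p16 and p19 products apart.

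The immediate early genes, which growth signals switch on within minutes, did not move in 1 direction. Atf3, a stress-induced factor, had 107, 78.9 and 151 CPM in HP and 49.3, 24.0 and 28.1 in HPN (log2 difference -1.73, SE 0.35, edgeR adjusted p = 0.681). Egr3 had 40.6, 57.7 and 27.8 CPM in HP and 21.8, 14.7 and 8.09 in HPN. Egr1 was at 8.63, 14.7 and 17.2 CPM in HP and at 56.6, 14.9 and 54.9 in HPN, so that these relatives had opposite signs. Of 16 genes 11 were positive, 2 lay lower and 0 higher in every HPN library. Readouts of the MAP kinase pathway had 12 of 15 positive members and a median of 0.33, which was 0.16 without HP 5. Among them, Spry1, a feedback inhibitor, had 63.4, 79.3 and 120 CPM in HP and 140, 110 and 148 in HPN.

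Genes reported in earlier work to be lowered by NM23-H1, the human NME1 protein, were also listed. Of 9 tested, 5 were positive and 4 negative, with a median of 0.10 that was -0.21 without HP 5. Ccn2, a matrix growth factor of the YAP pathway, had 12.1, 24.7 and 10.3 CPM in HP and 23.7, 78.6 and 64.6 in HPN, overlapping in HP 7 and HPN 2 (log2 difference 1.82, SE 0.52, edgeR adjusted p = 0.681). Neto2 had the other sign, at 14.3, 17.99 and 22.9 CPM in HP and 9.33, 7.67 and 8.80 in HPN (log2 difference -1.10, SE 0.25). Lpar1, a lysophosphatidic acid receptor, had 1.09, 3.35 and 1.49 CPM in HP and 3.12, 2.41 and 3.49 in HPN. Of 13 other metastasis suppressor genes 7 were positive and 6 negative. Cd82, a tetraspanin among them, had 5.99, 8.46 and 12.7 CPM in HP and 16.5, 18 and 29.1 in HPN (log2 difference 1.23, SE 0.35).

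Nucleotide synthesis, the pathway nearest to the kinases themselves, showed small differences. Of 30 tested genes 12 were positive and 18 negative, 1 lay lower in every HPN library, none had an unadjusted p under 0.05, and the median was -0.10. That median was 0.01 without HP 7 and -0.21 without HPN 7. Among proliferation genes, the median over 21 mitosis genes was 0.00, and -0.15 without HP 5. Over 20 DNA replication genes, 15 of them negative, it was -0.21, but 0.03 without HP 7 and -0.35 without HPN 7. Pola1, a DNA polymerase subunit, had 51.7, 60.4 and 50.7 CPM in HP and 46.1, 26.1 and 34.9 in HPN. Cdk4, the G1 kinase, had 184, 167 and 158 CPM in HP and 115, 141 and 123 in HPN (log2 difference -0.42, SE 0.18). Of 21 p53 targets 10 were positive; Plk2 had 291, 314 and 557 CPM in HP and 276, 139 and 170 in HPN, and Mdm2 111, 98.4 and 106 against 62.2, 85.7 and 82.0.

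Among 24 DNA repair genes 12 were positive and 12 negative, but 5 lay higher in every HPN library and 0 lower, by small amounts. Xpc, which recognises ultraviolet damage in nucleotide excision repair, had 26.5, 30.8 and 30.2 CPM in HP and 34.4, 40.7 and 52.2 in HPN (log2 difference 0.54, SE 0.21). Ercc5 and Ercc2, a nuclease and a helicase of the same pathway, had log2 differences of 0.40 and 0.31. Xrcc1, a scaffold of single-strand break repair, had 23.8, 31.3 and 27.1 CPM in HP and 34.8, 43.3 and 42.0 in HPN (log2 difference 0.55, SE 0.19). None passed adjustment (edgeR adjusted p 0.681 to 0.694).

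Glycolysis genes had mostly positive log2 differences, with the highest levels in 1 library. Of 20 genes 17 were positive, 3 lay higher in every HPN library, none passed adjustment in edgeR, and the median was 0.65. Gapdh had 754, 693 and 736 CPM in HP and 882, 1501 and 2742 in HPN 2, 5 and 7. Aldoa had 1257, 746 and 1014 CPM in HP and 1094, 1915 and 3482 in HPN. HPN 7 was the highest library for both, and without it the list's median was 0.18. Adm, a hypoxia-induced peptide, was at 461 CPM in HPN 7 and at 34.8 to 74.5 CPM in the other 5. The hypoxia list's median of 0.38 was -0.38 without HPN 7 and 0.63 without HPN 2. Oxidative phosphorylation genes had a median of 0.06 over 30 and ribosomal protein genes 0.17 over 32; without HP 9 these were -0.06 and -0.01, and without HP 5 they were 0.29 and 0.33.

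**Figure D3:**
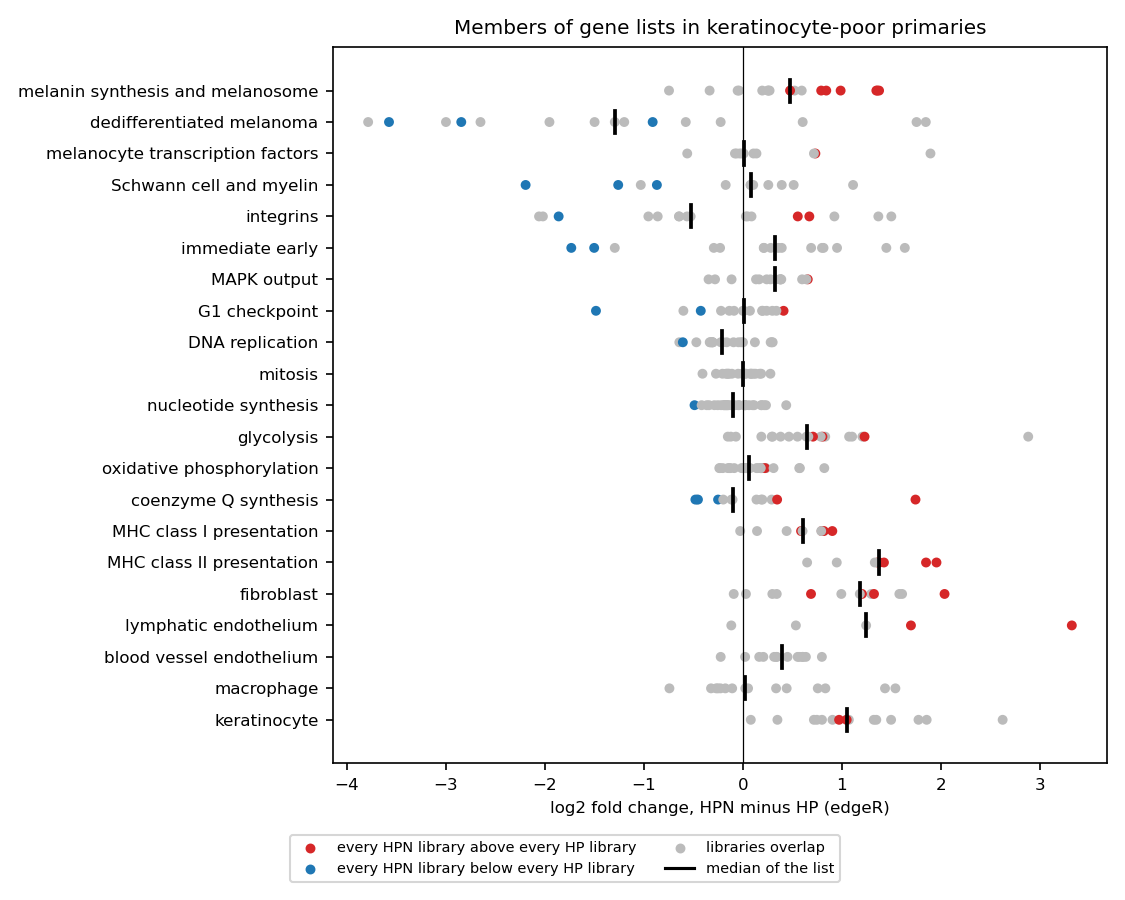
Log2 difference, HPN minus HP, of each tested member of 21 gene lists (points) with the list's median (black bar); red and blue points are genes whose libraries do not overlap between genotypes. Dedifferentiated melanoma genes have a median of -1.29 and melanin genes of 0.48; mitosis genes cluster at 0.

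Antigen presentation genes had mostly positive log2 differences, and none passed adjustment in edgeR. All 8 tested MHC class II genes had a positive log2 difference, 5 lay higher in every HPN library and the same number had an unadjusted p under 0.05; the median was 1.37. Cd74, the chain that guides class II molecules through the cell, had 5.24, 14.1 and 13.0 CPM in HP and 28.2, 68.8 and 20.1 in HPN (log2 difference 1.85, SE 0.56, edgeR adjusted p = 0.681). H2-Aa had 3.33, 7.87 and 7.37 CPM in HP and 12.8, 26.9 and 8.83 in HPN. HPN 5 was the highest library for both, and the list's median was 0.83 without it. Of 9 class I genes 8 were positive and 4 lay higher in every HPN library, with a median of 0.60. H2-K1 had 46.5, 69.2 and 93.8 CPM in HP and 104, 133 and 156 in HPN. Without HP 9 the class I median was 0.93, and without HP 5 it was 0.45. Tap2, a subunit of the peptide transporter, had 9.35, 17.1 and 19.6 against 22.9, 26.2 and 32.2.

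Beside these, markers of immune cells that carry class II molecules were in part positive. All 8 tested B cell genes were positive and their summed level was 4.91 to 11.5 CPM in HP and 9.14 to 28.0 in HPN. All 7 tested dendritic and Langerhans cell genes were positive, with 9.62 to 25.0 CPM in HP and 15.7 to 56.5 in HPN. Of 15 macrophage genes 8 were positive and the summed level was 311 to 709 CPM in HP and 210 to 899 in HPN. Their part in the class II values was not tested. Interferon response genes had 16 of 25 positive members and a median of 0.07, with no member separating the genotypes. That median was 0.64 without HP 9 and -0.44 without HPN 7. Cd274, which encodes the checkpoint ligand PD-L1, had 35.2, 25.2 and 24.4 CPM in HP and 124, 43.2 and 43.5 in HPN, the highest in HPN 2.

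Markers of the stroma had mostly positive log2 differences, and no fibroblast, lymphatic or blood vessel gene passed adjustment in edgeR. Of 13 fibroblast genes 12 were positive and 4 lay higher in every HPN library, with a median of 1.18. Their summed level was 273, 1106 and 1061 CPM in HP 5, 7 and 9 and 2087, 1170 and 2136 CPM in HPN 2, 5 and 7. Col1a1 had 98.9, 408 and 454 CPM in HP and 874, 479 and 1058 in HPN, and Pdgfra, a growth factor receptor that marks fibroblasts, 0.955, 3.71 and 3.68 against 7.80, 5.66 and 21.0. HP 5 was the lowest library for both, and the list's median was 0.72 without it. Lymphatic vessel genes had 4 of 5 positive. Flt4, the receptor for the lymphatic growth factor Vegfc, had 4.91, 9.48 and 8.06 CPM in HP and 20.1, 17.8 and 35.2 in HPN (log2 difference 1.70, SE 0.36, edgeR adjusted p = 0.681). Lyve1, the lymphatic hyaluronan receptor, had 1.05, 3.32 and 0.525 CPM in HP and 10.5, 7.67 and 31.6 in HPN. The lymphatic list's median of 1.25 was 0.68 without HPN 7, its highest library. Blood vessel genes had 13 of 14 positive with none separating and a median of 0.40, which was 0.15 without HPN 7 and 0.76 without HP 9.

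Genes that stroma secretes or that sit in its matrix were described beside these markers. Sfrp2, a secreted Wnt modulator of fibroblasts, had 0.231, 0.338 and 0.254 CPM in HP and 0.943, 2.30 and 10.3 in HPN (log2 difference 4.01, SE 0.92). Mmp3, a matrix protease, had 5.96, 6.42 and 11.1 CPM in HP and 36.2, 13.1 and 191 in HPN. Their wider groups were mixed. Of 17 tested invasion proteases and inhibitors 10 were positive and 7 negative, with a median of 0.10 that was -0.11 without HP 5. Of 14 tested Wnt pathway genes 9 were positive and 5 negative, with a median of 0.18. Of 19 collagens 13 were positive, with a median of 0.59 that was 0.19 without HP 5 and 1.12 without HP 9. Plin4, a lipid droplet protein of fat cells, had 0.395, 0.303 and 0.127 CPM in HP and 1.496, 3.58 and 4.02 in HPN. All 8 tested adipocyte genes were positive and 2 lay higher in every HPN library. The list's median of 1.36 was 0.45 without HPN 5. Its summed level overlapped, at 281 to 429 CPM in HP and 200 to 548 in HPN. The part of stromal cells in these values was not tested.

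Genes of remaining skin structures and of muscle varied from library to library. Hair follicle genes were high in HPN 2 alone: Tchh, the hair sheath protein trichohyalin, had 37.6 CPM there and 0.525 to 1.43 CPM in the other 5, and the list summed to 90.0 CPM in HPN 2 and to 1.23 to 3.62 elsewhere. Skeletal muscle genes summed to 175 CPM in HPN 5 and 74.7 in HP 7, and to 5.23 to 15.2 in the other 4. The keratinocyte list, which the rule used, summed to 13.5 to 39.8 CPM in HP and to 79.0, 10.1 and 73.4 in HPN 2, 5 and 7. All 16 tested members had a positive log2 difference, and 2 lay higher in every HPN library. Their median was 1.05, and -0.33 in a fit on the libraries numbered 5 and 7 alone.

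The same genotype comparison in the 8 keratinocyte-rich primaries called 0 of 17329 genes in edgeR (0%), with 1455 at an unadjusted p under 0.05; DESeq2 called 191. When all 14 primaries were fitted as 4 groups (18425 genes), the keratinocyte-poor contrast called 0 (0%), with 1550 at an unadjusted p under 0.05. In that fit the genotype difference itself differed between the keratinocyte-poor and keratinocyte-rich primaries for 1 gene (0.00543%), Tubb3 (ENSMUSG00000062380), with 1851 genes at an unadjusted p under 0.05. Tubb3, named after its values were seen, encodes a beta-tubulin of neurons that neural crest tumours also express.

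In keratinocyte-poor primaries Tubb3 had 309.7, 218 and 493 CPM in HP 5, 7 and 9 and 113, 128 and 122 in HPN 2, 5 and 7. Every HPN library lay below every HP library (log2 difference -1.49, SE 0.31). In keratinocyte-rich primaries, scaled over all 23 libraries, it had 31.9 to 42.5 CPM in HP and 94.2 to 168 in HPN, so every HPN library lay above every HP library (log2 difference 1.90, SE 0.20, edgeR adjusted p = 0.109 in those 8). The keratinocyte-poor HPN tumours, at 120 to 137 CPM on that scale, thus overlapped with the keratinocyte-rich HPN tumours, and the HP tumours differed most between the sets. The difference of the differences was -3.38 (SE 0.36, edgeR adjusted p = 0.0073), and it passed when each of the 14 libraries was left out in turn (adjusted p 0.0020 to 0.0461). Keratinocyte RNA, which separates the sets, also makes up part of each library's total; its part in the level of Tubb3 was not tested.

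Several other genes had opposite signs in the 2 sets without passing the test of the difference. Ngfr was -3.57 in keratinocyte-poor and 2.04 in keratinocyte-rich primaries, Cdh19 was -0.87 and 1.97, and Fn1 was -2.10 and 1.61. The other dedifferentiated genes described above did the same: Nes was -1.95 and 1.71, Gfra2 -2.84 and 0.44, and Zeb2 -0.91 and 0.27. For Nes the edgeR unadjusted p in keratinocyte-rich primaries was 0.0021. For Ngfr and Cdh19 the adjusted p of the difference was 0.238 and 0.199 (edgeR). Over the 16 leading genes of the keratinocyte-poor comparison that adjusted p ran from 0.199 to 0.948.

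**Figure D4:**
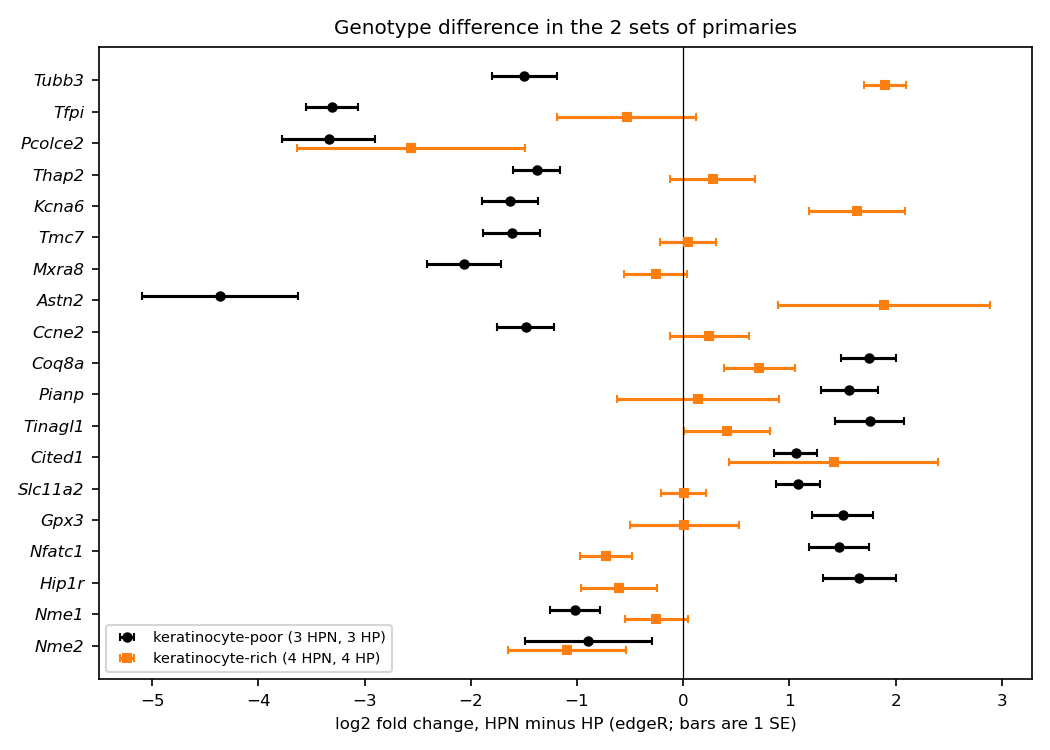
Log2 difference, HPN minus HP, with its SE (bars) in the keratinocyte-poor (black, 3 against 3) and keratinocyte-rich primaries (orange, 4 against 4) for Tubb3, the 16 leading genes, Nme1 and Nme2. Tubb3 is at -1.49 and 1.90; the leading genes were chosen in the black set, and Pcolce2, at -3.34 and -2.56, is low in both.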

How the data were processed

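The authors deposited raw read counts per gene (whole numbers under Ensembl identifiers), in a separate file for each library. The summary entries carry the names that HTSeq uses, per the file contents. Total RNA went into strand-specific libraries, per the labels' protocols. The submitters' processing notes list bcl2fastq 1.8.4, STAR 2.5.3a and the genome build mm9. The counter's strand setting and its annotation are not stated in these sources. Summary entries were kept out of library sizes; genes took 33.9 to 50.8% of all entries in the 6 libraries. Symbols came from GENCODE for GRCm38 by identifier, and promoter windows from RefSeq (GRCm38.p6).

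The 6 libraries were fitted alone with edgeR 4.0.16 in R 4.3.3 (filterByExpr, TMM, robust quasi-likelihood test, Benjamini-Hochberg adjustment over all genes tested, threshold 0.05). CPM values use TMM-scaled library sizes of these 6 libraries unless said otherwise. The fit was tested on simulated counts, where both tools made false calls, DESeq2 more than edgeR at the same threshold. In edgeR, too, false calls took a larger share of all calls than the threshold of 0.05. DESeq2 also found a larger share of the changes put in, at each size. Those counts were drawn with edgeR's own estimates of spread, so they do not rank the tools on these data. Alternatives were DESeq2 1.42.0, limma 3.58.1 voom with quality weights, other scaling, filters, terms and libraries left out; those with sex as a term and with HPN 7 and HP 9 left out together were chosen after seeing the data. Named genes were the Nme genes, called genes, the 8 genes with the smallest p in each direction that averaged 5 CPM or more in the group where they were higher, and up to 4 members with the smallest p in each of 53 lists; predicted genes, segments and pseudogenes were left out (94 at an unadjusted p under 0.05, 0 called). Pmel, Mlph, Gpnmb, Tyr, Tyrp1, Dct, Hgf and Tubb3 were added after their values were seen. The members and lists were chosen with earlier results of these data known. Lists are described by counts and medians, not tested.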

Additional observations from a re-analysis of the deposited data

Results flagged for a closer look

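Tubb3 differed between the sets of primaries: its genotype difference in keratinocyte-poor primaries minus that in keratinocyte-rich primaries was -3.377 on the log2 scale (edgeR adjusted p = 0.0073), with every library of each genotype on opposite sides in the 2 sets.

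Of 38 groups of 4 keratinocyte-rich libraries examined, 3 held a library far from the other 3; chance flags about 1 in 20 groups. Tfpi in keratinocyte-rich HP primaries was highest in HP 3 at 59.7 CPM, with the others at 9.77, 12 and 15.5. Pcolce2 in keratinocyte-rich HPN primaries was highest in HPN 1 at 39.5 CPM, with the others at 2.002, 5.42 and 6.32. Thap2 in keratinocyte-rich HPN primaries was lowest in HPN 3 at 5.598 CPM, with the others at 17.8, 18.6 and 19.3. The keratinocyte-poor groups hold 3 libraries each, too few for this check.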

How the results depend on the processing

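The count of called genes, 1 in the analysis reported, was 146 with DESeq2 and 7 (4 higher, 3 lower) with HPN 7 and HP 9 both left out. It was 0 in the fit of 14 primaries, 0 with the low alignment quality entry as a term, 0 with sex as a term, and 0 to 0 when each library was left out (770 to 1779 genes at an unadjusted p under 0.05). Numbers 5 and 7 occur in both genotypes. Deviations from the genotype mean correlated at r = 0.138 (number 5) and 0.019 (number 7) between same-numbered libraries. For HP 5 with HPN 7 and HP 7 with HPN 5 they correlated at -0.235 and 0.0921. What a shared number stands for was not tested. The replicate block on these numbers called 0 genes, with 846 at an unadjusted p under 0.05. The log2 difference of Tfpi was -3.318 in the fit of 14 primaries, -3.286 with the low-quality term, -3.423 with sex and -3.442 under the replicate block (adjusted p = 0.645), and -3.444 to -3.128 with 1 library left out; the call held in 8 of 18 alternatives. The count of genes whose genotype difference differed between the sets was 278 with DESeq2 and 1 to 3 with 1 library left out. Of the 116 other genes followed over the alternatives, 110 kept 1 sign. Many of them were named for a small p in these 6 libraries, which the alternatives reuse, so the choice favours a kept sign. Nme4 turned to 0.1724 under the replicate block and 0.04217 without HPN 7 and HP 9, Nme6 to 0.07346 with limma voom, and Edn1 to -0.0351 and Adm to -0.2295 without HPN 7 and HP 9. With 1 library left out, the log2 difference ran from -0.3424 to 0.06424 for Nme6, -0.03234 to 0.1458 for Nme7, -0.2165 to 0.151 for Tyrp1, -0.05564 to 4.048 for Edn1 and -0.3321 to 2.106 for Adm. Of 49 list medians, 22 kept 1 sign in every alternative run, among them pigment, MHC, fibroblast and lymphatic genes, and 27 did not. The causes were not tested.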

Other observations

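Mast cell genes were low in every HPN tumour and in HP 5: Cpa3, a mast cell carboxypeptidase, had 0.527, 7.37 and 9.24 CPM in HP 5, 7 and 9 and 0.975, 1.48 and 0.970 CPM in HPN 2, 5 and 7, and Tpsb2, a tryptase, 0.593, 10.2 and 6.59 against 1.43, 2.79 and 0.901. Of 7 tested mast cell genes 6 were negative, with a median of -1.07 that was -1.92 without HP 5, -0.71 without HP 9 and -0.10 under the replicate block. The list summed to 4.08 CPM in HP 5, 30.8 and 30.5 in HP 7 and 9, and 5.17 to 13.2 in HPN. In keratinocyte-rich primaries Cpa3 had a log2 difference of -2.35 (edgeR unadjusted p = 0.0386) beside -2.32 here (unadjusted p = 0.0339); neither passed adjustment.

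Cytotoxic lymphocyte genes stayed below 1 CPM in all 6 libraries. Prf1, the pore-forming perforin of killer cells, had 0.0329, 0.0233 and 0.217 CPM in HP and 0.325, 0.398 and 0.809 in HPN, and of 7 tested genes of its list 6 were positive. Of 9 tested T cell genes 8 were positive, with none separating the genotypes. Neutrophil genes followed HPN 7: S100a9 had 15.7 CPM there and 0.187 to 3.10 CPM in the other 5, and the list's median of 1.86 was -0.03 without that library and 3.39 without HP 5. Plasma cell genes had a median of 1.05, and of 0.15 without HPN 7.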
